A study of Mus musculus with 3 samples.

Results

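The 8 genes described here encode enzymes of heme biosynthesis, and they were followed in 3 RNA-seq libraries of mouse bone marrow. They were chosen as the named enzymes of the pathway, from the synthesis of δ-aminolevulinic acid to the insertion of iron, and all 8 were found by NCBI Gene ID among the 16742 gene IDs listed in any library. The enzyme of the step between Alad and Uros was not analysed here. The Control library was made from lineage-depleted (lin-) bone marrow cells of C57BL/6 mice of wild-type genotype. For TR1 and TR9, GFP+ cells were taken from the bone marrow of leukemia mice that carried TBLR1-RARα (TR), a fusion of TBLR1 with the retinoic acid receptor α found in a variant acute promyelocytic leukemia. TR was brought into lin- marrow cells of C57BL/6 mice by a retrovirus that expresses GFP from the same transcript. Each leukemia was traced to 1 primary mouse (No. 1 or No. 9), and the cells came from the third generation of transplanted mice. The labels give the age of the mice as 6 to 8 weeks, and each library pooled 3 mice. Control cells were thus obtained by removing cells with mature lineage markers, whereas TR cells were sorted for GFP. Transduction, transplantation and leukemia also went with the TR cells alone, and no library held cells with the empty vector. Isolation, transduction, transplantation, leukemia and genotype therefore cannot be told apart.

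Heme is made partly in mitochondria and partly in the cytosol. The synthesis of δ-aminolevulinic acid from glycine and succinyl-CoA is the rate-limiting step, and it is carried out by one of 2 isoenzymes, the ubiquitous Alas1 and the erythroid Alas2. Developing red cells induce the pathway strongly to supply hemoglobin, with the factor GATA1 among the known activators of its genes, while other marrow cells need heme for cytochromes, catalase and, in the granulocyte lineage, myeloperoxidase.

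Each library had between 5129662 and 5571409 expected counts, and each condition had 1 library, so no difference has a replicate check and every interval is a 95% exact interval that covers counting error only. Expected counts are reads assigned to a gene by estimation, and FPKM are fragments per kilobase of transcript, scaled to the library total, a scale on which different genes can be compared. A gene was called when the reads of 2 libraries differed at a false discovery rate of at most 0.001 in a Poisson test and the log2 ratio of FPKM was at least 1 in size. Such a call compares 2 libraries, not 2 conditions.

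In the TR libraries, RNA of 6 of the 8 enzymes (Alas2, Alad, Uros, Urod, Cpox and Fech) was called lower than in Control in both TR1 and TR9, and Alas1 went the other way. In TR1, 7 of 8 were lower and 0 were higher, where 13.0% of all 16282 genes tested were called lower and 8.09% higher. In TR9, 6 of 8 were lower and 1, Alas1, was higher, beside 10.8% and 9.37% of 16303 genes. The median log2 ratio of the 8 enzymes was -2.26 in TR1 and -2.07 in TR9 (-2.25 and -2.07 with Alas2 at its bound), whereas that of all genes tested was -0.29 and -0.12. Both comparisons share the Control library. When libraries were scaled by TMM instead of their totals, which moved the median log2 ratio of all genes up by 0.25 in TR1 and by 0.11 in TR9, Ppox was no longer called in TR1 and Alas1 was called higher there, and the other calls stood.

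**Figure D1:**
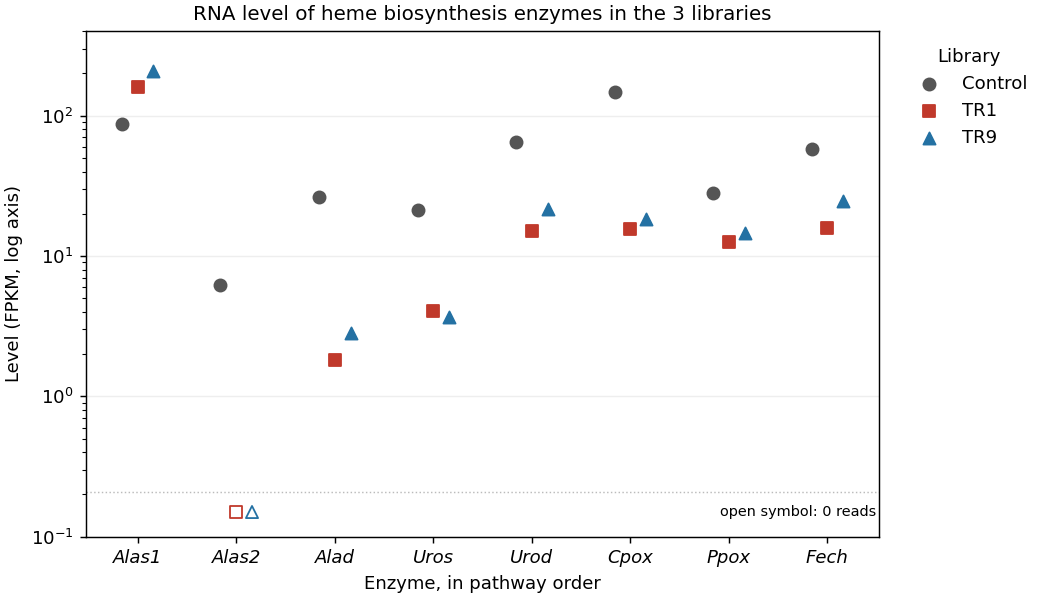
RNA level in FPKM (log axis) of the 8 enzymes in pathway order in the Control, TR1 and TR9 libraries, 1 point per library, with no error bars because each condition had 1 library. Alas1 lies higher in both TR libraries than in Control, the other 7 lie lower, and Alas2 has 0 reads in both TR libraries (open symbols).

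The upstream windows of 4 starts are shown for reading beside these levels. Among them are those of the enzymes that stand furthest apart, the erythroid Alas2 and the ubiquitous Alas1. The others are of lowered enzymes whose windows hold a GATA motif, among the enzymes searched, which did not include Fech. The windows are the 250 bases before a RefSeq start on GRCm38.p6, written 5′ to 3′ along the strand of the gene, with capitals for matches on either strand to AGATAA or the like motif TGATAA, known from factors of the GATA family, to CACCC (the KLF type) and, for Alas1, to GCGCATGC (the core of the NRF1 motif). They are the window of Alas2 (chrX:150547167-150547416, plus strand), that of Cpox (chr16:58669958-58670207, plus strand), that of the second Uros start (chr7:133702501-133702750, minus strand) and that of the second Alas1 start (chr9:106247731-106247980, minus strand).
Alas2: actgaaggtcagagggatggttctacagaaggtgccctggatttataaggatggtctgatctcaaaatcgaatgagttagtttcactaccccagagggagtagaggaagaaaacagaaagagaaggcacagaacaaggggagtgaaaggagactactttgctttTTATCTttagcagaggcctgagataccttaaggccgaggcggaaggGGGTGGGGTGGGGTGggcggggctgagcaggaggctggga
Cpox: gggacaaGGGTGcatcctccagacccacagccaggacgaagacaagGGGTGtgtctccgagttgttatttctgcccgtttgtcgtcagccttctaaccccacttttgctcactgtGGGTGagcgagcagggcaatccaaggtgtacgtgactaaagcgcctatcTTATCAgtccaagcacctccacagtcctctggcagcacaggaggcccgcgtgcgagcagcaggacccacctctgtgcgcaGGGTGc
Uros: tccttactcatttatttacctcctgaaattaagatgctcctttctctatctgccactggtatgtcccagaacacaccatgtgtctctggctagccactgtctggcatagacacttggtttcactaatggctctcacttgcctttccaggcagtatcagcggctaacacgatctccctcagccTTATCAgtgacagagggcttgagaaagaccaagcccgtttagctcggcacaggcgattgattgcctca
Alas1: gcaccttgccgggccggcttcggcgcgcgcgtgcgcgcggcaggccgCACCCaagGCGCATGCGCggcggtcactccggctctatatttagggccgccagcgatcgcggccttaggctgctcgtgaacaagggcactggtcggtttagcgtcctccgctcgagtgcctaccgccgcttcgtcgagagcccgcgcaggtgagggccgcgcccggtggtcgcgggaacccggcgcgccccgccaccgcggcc

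Upstream windows of 7 of the enzymes were searched, 10 windows in all, and Fech was not among them. A GATA match stood 86 bases before the start in both Alas2 and Cpox and 68 bases before the second Uros start, while the windows of Alas1, Alad, Urod and Ppox and the first Uros window, 6795 bases upstream, held none. Of all 32851 windows of this length in the table, 16.6% held AGATAA or its like TGATAA, 52.0% held CACCC and 2.26% held GCGCATGC. Alas2 had 3 CACCC matches between 40 and 30 bases before the start and Cpox had 4. Both Alas1 windows and the second Alad window held 1 each, and the first Alad window and those of Uros, Urod and Ppox held none. The second Alas1 window had 2 overlapping GCGCATGC matches, 195 and 193 bases before the start, which are the same palindrome read on both strands. A match is a run of letters and was not tested as a binding site. The files give 1 value per gene, so the alternative starts of Uros and Alas1 cannot be told apart in these data.

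Alas1, the ubiquitous isoenzyme, gave 1307 expected counts in Control against 2410 in TR1 and 2892 in TR9. Both TR libraries were above Control, TR9 the higher of them. On the FPKM scale its level was 87.9, 159 and 208, which placed it at percentile 94.4 of the listed genes in Control and at 97.4 and 98.2 in the leukemias. The ratio to Control was 1.81-fold in TR1 (log2 0.86, 95% interval 0.76 to 0.96), below the threshold of the call, and 2.36-fold in TR9 (log2 1.24, 1.15 to 1.34). The log2 ratio in TR1 was 1.11 with TMM scaling and 1.09 with the median of ratios.

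Alas2, which performs the same reaction in red cell precursors and carries an iron-responsive element in its mRNA, had 68 expected counts in Control and 0 in each TR library. Its level in Control was 6.26 FPKM, near the middle of the listed genes (percentile 46.6) and the lowest of the 8 enzymes. With 3 counts as the floor, which is 0.272 FPKM in TR1 and 0.295 in TR9, the fall of Alas2 was at least 23.0-fold in TR1 and at least 21.2-fold in TR9. Both isoenzymes were therefore read in Control, where the FPKM of Alas1 was 14.0 times that of Alas2, and Alas1 alone was read in the TR libraries, where that ratio was at least 585 in TR1 and at least 704 in TR9.

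Alad, which condenses δ-aminolevulinic acid to porphobilinogen in the cytosol, fell most of the 7 enzymes still read in the TR libraries. Its expected counts were 661 (Control), 46 (TR1) and 66 (TR9), or 26.4, 1.81 and 2.81 FPKM. The TR levels were 6.86% and 10.7% of Control, with log2 ratios of -3.87 (-4.33 to -3.43) in TR1 and -3.23 (-3.62 to -2.86) in TR9. The interval of Cpox met that of Alad at -3.43 in TR1 and overlapped it in TR9 (-3.18 to -2.83). From percentile 78.1 of the listed genes in Control, Alad moved to 30.9 and 33.9.

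Uros closes the tetrapyrrole ring, and Urod removes carboxyl groups from its side chains, both in the cytosol. Uros counts were 211 (Control), 41 (TR1) and 34 (TR9) (21.3, 4.07 and 3.67 FPKM). It was 5.24-fold lower in TR1 (log2 -2.39, -2.91 to -1.90) and 5.81-fold lower in TR9 (log2 -2.54, -3.11 to -2.01), so that the pair of TR libraries lay close to each other and well under Control. Urod had 424, 99 and 131 expected counts (65.4, 15.0 and 21.6 FPKM). The fall was 4.36-fold in TR1 (log2 -2.12, -2.45 to -1.81) and 3.03-fold in TR9 (log2 -1.60, -1.89 to -1.31).

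Cpox, the coproporphyrinogen oxidase between the outer and inner mitochondrial membranes, was the most abundant of the 8 in Control. Its expected counts of 2597 in Control against 279 in TR1 and 304 in TR9 were not whole, because some of its reads were divided between genes in the estimation. Its level went from 148 FPKM, percentile 97.2 of the listed genes, to 15.6 and 18.5 FPKM, percentiles 68.0 and 70.2. That was 9.46-fold lower in TR1 (log2 -3.24, -3.43 to -3.06) and 8.01-fold lower in TR9 (log2 -3.00, -3.18 to -2.83).

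Ppox and Fech carry out the last steps in mitochondria, the oxidation to protoporphyrin and the insertion of iron, and along with Urod they changed less than Alad or Cpox. Ppox counts were 279 (Control), 127 (TR1) and 137 (TR9) (28.0, 12.5 and 14.7 FPKM). It was 2.24-fold lower in TR1 (log2 -1.16, -1.48 to -0.85) and was not called in TR9, where its level was 52.5% of Control (log2 -0.93, -1.24 to -0.63). Its intervals span the threshold of the call in both libraries. Fech had 933, 257 and 372 expected counts (58.4, 15.8 and 24.9 FPKM), and it was 3.69-fold lower in TR1 (log2 -1.89, -2.09 to -1.68) and 2.35-fold lower in TR9 (log2 -1.23, -1.41 to -1.06).

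**Figure D2:**
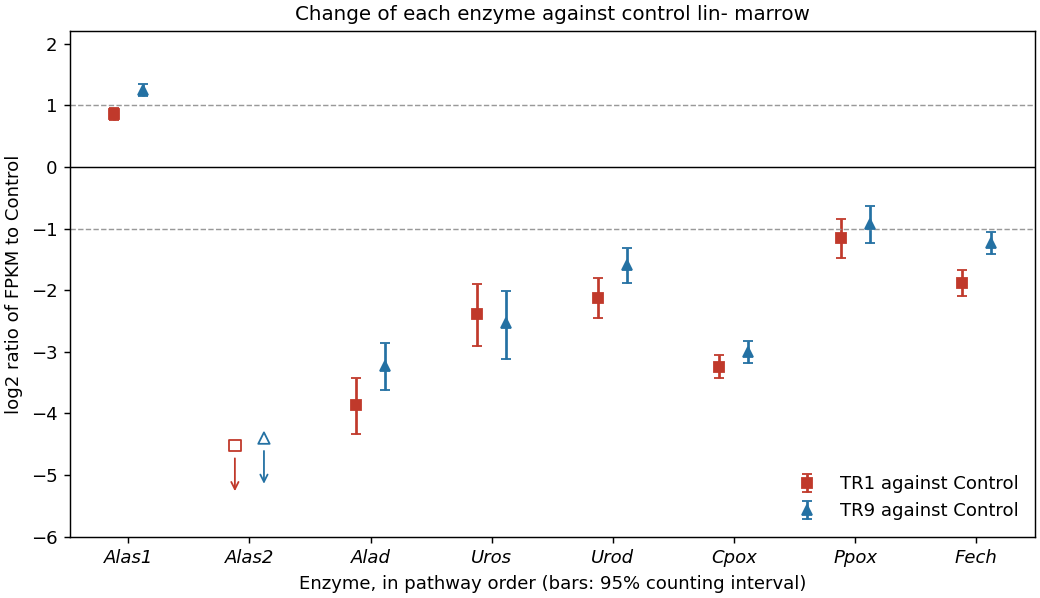
Log2 ratio of FPKM to Control of each enzyme in TR1 (squares) and TR9 (triangles), with 95% counting intervals, dashed lines at the log2 ratio of 1 used for calls, and open symbols with arrows for the bounds of Alas2 at 3 counts. Alas1 lies above 0 at 0.86 and 1.24, Alad and Cpox lie lowest of the enzymes read in every library, and Ppox lies at -1.16 and -0.93.

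Set against each other within a library, a measure that does not depend on how libraries were scaled, the enzymes had changed by unequal amounts. Relative to Alas1, from the ratio of the expected counts of both genes, Alad was 26.5-fold lower in TR1 than in Control and 22.1-fold lower in TR9, and Cpox was 17.2-fold and 18.9-fold lower. The smallest such change was that of Ppox, at 4.05-fold in TR1 (log2 -2.02, -2.35 to -1.69) and 4.50-fold in TR9 (log2 -2.17, -2.49 to -1.86). Relative to Fech, the log2 change of Alad was -1.98 (-2.49 to -1.50) in TR1 and -2.0 (-2.42 to -1.59) in TR9, and that of Cpox was -1.36 (-1.63 to -1.08) and -1.77 (-2.02 to -1.52), so both had fallen more than Fech by this measure in each library. Ppox went the other way in TR1 (log2 0.72, 0.35 to 1.10), with an interval that held 0 in TR9 (log2 0.30, -0.05 to 0.65). Uros was lower relative to Fech in TR9 (log2 -1.31, -1.90 to -0.75), with an interval that held 0 in TR1 (log2 -0.50, -1.06 to 0.03). For Urod in TR1 the interval of the change relative to Fech held 0 (log2 -0.24, -0.63 to 0.14). In TR9 Urod was lower relative to Fech by a narrow margin (log2 -0.37, -0.71 to -0.03).

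The order of the enzymes by FPKM also differed. In Control it ran from Cpox through Alas1, Urod, Fech, Ppox, Alad and Uros to Alas2, and the neighbours Urod and Fech (log2 difference 0.16, -0.01 to 0.33) and Ppox and Alad (0.09, -0.12 to 0.29) could not be told apart by counting error. In TR1 it ran from Alas1 through Fech, Cpox, Urod, Ppox, Uros and Alad to Alas2, and within the run from Fech to Ppox no neighbouring pair differed beyond counting error, while Alas1 stood above Fech (3.33, 3.15 to 3.52) and Ppox above Uros (1.62, 1.10 to 2.17). In TR9 Urod stood before Cpox, and the pairs not apart were Fech and Urod, Urod and Cpox, and Uros and Alad (0.39, -0.26 to 1.0), whereas Cpox stood above Ppox by a narrow margin (0.33, 0.03 to 0.63). Alas1 had 0.595 times the level of Cpox in Control, but 10.1 times that of the next enzyme, Fech, in TR1 and 8.35 times that of Fech in TR9.

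The summed FPKM of the 8 enzymes was 441 in Control against 224 in TR1 and 294 in TR9. Alas1 made up 19.9% of that sum in Control, but 71.1% and 70.7% in the leukemias. Without Alas1 the sum went from 353 FPKM in Control to 64.8 and 86.1, which is 18.3% and 24.4% of Control.

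**Figure D3:**
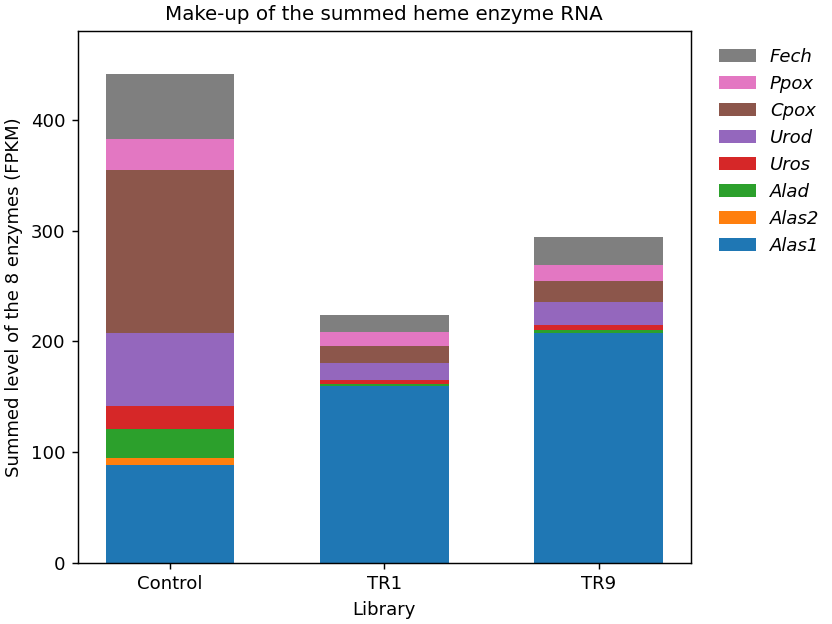
Summed FPKM of the 8 enzymes in the Control, TR1 and TR9 libraries, stacked by enzyme in pathway order from Alas1 at the bottom, with 1 library per bar and no error bars. Alas1 makes up 19.9% of the bar in Control and 71.1% and 70.7% of the bars in TR1 and TR9.

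Between the leukemias, 0 of the 7 enzymes read in TR1 or TR9 was called, where 2.31% of 15706 genes were called lower and 4.34% higher in TR9 than in TR1. None of their log2 ratios reached the size of 1 that a call needs, so no other test could have changed this count. The 6 of these enzymes other than Uros had the higher level in TR9, and the median log2 ratio of TR9 to TR1 was 0.38, beside 0.13 over all genes tested. The log2 ratio was 0.65 (0.42 to 0.89) for Fech, 0.63 (0.07 to 1.21) for Alad, 0.53 (0.14 to 0.92) for Urod, 0.38 (0.31 to 0.46) for Alas1, 0.24 (0.00 to 0.48) for Cpox, 0.23 (-0.13 to 0.59) for Ppox and -0.15 (-0.85 to 0.54) for Uros. Relative to Alas1, the interval of Fech alone left out 0 (log2 0.27, 0.02 to 0.52), of 6 such ratios.

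Markers of marrow cell types also differed between Control and the TR libraries, some lower and some higher. Of 14 erythroid markers, 14 were called lower in both TR1 and TR9, and their summed FPKM went from 2833 in Control to 19.1 and 24.3. Gata1 was read at 999 counts in Control against 5 and 6, while Epor and Slc4a1 were at 0 in TR1. Of 9 megakaryocyte markers, 9 were lower in both, with 5 of them at 0 in TR1 and 4 in TR9 and a summed FPKM of 988, 3.31 and 2.32. Of 6 mast cell and basophil markers tested, 5 were lower in both (summed FPKM 927, 73.7 and 85.8), and of 7 B lineage markers tested 1 was lower in each TR library, with 1 higher in TR1 and 2 in TR9 (summed FPKM 12.8, 17.0 and 201). Promyelocyte markers were higher in 5 of 5 genes in TR1 and 4 of 5 in TR9 (summed FPKM 4251, 21278 and 23701), and later neutrophil markers in 7 of 7 in both (85.5, 23121 and 8941). The part of this difference in cell make-up in the levels of the enzymes was not tested, and in bulk RNA fewer cells of a type and less RNA per cell cannot be told apart. The summed FPKM of the 7 enzymes other than Alas1 was 18.3% of Control in TR1 and 24.4% in TR9. That of the erythroid markers was 0.675% and 0.859%. These sums rest on few genes. Tal1 gave 14.4 of the 19.1 FPKM in TR1 and 16.6 of the 24.3 in TR9, and Car1 gave 1253 of the 2833 in Control.

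Of the genes around the pathway, more were called lower than higher in each TR library. Over the 7 lists of heme-related genes beside the enzymes, 38 of 92 tested were called lower and 8 higher in TR1 (median log2 ratio -0.78), and 28 of 90 were lower and 7 higher in TR9 (median -0.54). Their shares stand beside the 13.0% and 10.8% of all genes called lower, and the 8.09% and 9.37% called higher. The lists include the hemoglobin genes, and also Gata1, Klf1 and Tal1, which are erythroid markers too. In TR9 against TR1, 5 of 91 were lower and 8 higher.

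Genes that supply glycine and carry intermediates across the mitochondrial membranes were lower in 8 of 16 and higher in 1 in TR1 (median -1.02), and lower in 5 and higher in 0 in TR9 (median -0.60). Abcg2, a porphyrin exporter, was read at 355 counts in Control against 4 in TR1 and 73 in TR9. Abcb6, a porphyrin transporter, had 225, 20 and 38, which is 11.5-fold and 5.54-fold lower. Tspo, an outer mitochondrial membrane protein that binds porphyrins, was higher in TR1 (326 against 951 counts, log2 1.52) but not called in TR9 (377 counts, log2 0.31). Shmt1, which makes glycine from serine, had 189, 170 and 231 counts and was not called in either.

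Genes of iron delivery and iron-sulfur assembly were lower in 8 of 16 in TR1 and 6 of 16 in TR9, with 0 higher in each (medians -1.07 and -0.85). Steap3, the endosomal ferrireductase of red cell precursors, went from 879 counts to 50 and 31, a fall of 17.9-fold and 26.6-fold. Slc11a2, which moves iron out of the endosome, was 4.20-fold and 3.57-fold lower. The mitochondrial iron importers Slc25a37 (mitoferrin 1; 622, 823 and 564 counts) and Slc25a28 (mitoferrin 2; 136, 134 and 141 counts) were not called in either TR library.

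Genes of heme export, uptake and degradation went both ways. Of 12 tested in TR1, 6 were lower and 1 higher, and of 11 in TR9, 5 were lower and 2 higher (medians -0.85 and -0.88, or -1.50 and -0.95 over the genes above the floor). Blvrb, a biliverdin reductase abundant in red cells, went from 1074 counts to 39 and 136 (28.0-fold and 7.39-fold lower), and the heme-binding protein Hebp1 was 10.1-fold and 7.79-fold lower. Lrp1, the receptor that takes up heme bound to hemopexin, rose from 208 counts to 905 and 622 (4.27-fold and 3.19-fold). Slc48a1, which moves heme out of the lysosome, was 3.29-fold higher in TR9 and lay under the threshold in TR1 at 1.86-fold.

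Among genes of heme sensing and transcription, 5 of 16 were lower and 1 higher in TR1, and 4 were lower and 2 higher in TR9 (medians -0.70 and -0.33). Those lower in TR9 were Gata1, Klf1, Tal1 and Zfpm1, and those lower in TR1 were the same and Aco1 (log2 -1.01). Gata1, Klf1 and Tal1 were also among the erythroid markers. Zfpm1 (FOG1, the cofactor of GATA1) was read at 1523 counts in Control against 1 and 9, and the erythroid factor Klf1 had 918, 3 and 5. Ppargc1a, a coactivator known to induce Alas1 in liver, was read at few counts, 4.12 against 25.1 and 54.0 (log2 2.65, 1.12 to 4.63, and log2 3.86, 2.42 to 5.79). Nfe2 had 893, 839 and 1646 counts and was not called against Control.

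Among heme-using proteins, the hemoglobin genes were lower and the other hemoproteins were called in both directions. Of the 4 hemoglobin genes listed, 4 were lower in both TR libraries, among them Hba-a1 with 1240 counts against 10 and 18, and Hbb-b1 with 452, 9 and 9.78. Hbb-bs had 626, 0 and 8.22, and Hba-a2 had 46.6 in Control and 0 in both. Hemoglobin gene copies share reads that were divided in the estimation, so the value of a single copy is uncertain. The median log2 ratio of the hemoglobin genes was -6.33 in TR1 and -5.72 in TR9 with genes at 3 or fewer counts set to the floor. The list of other hemoproteins held mostly myeloid genes, and also the globins Mb, Ngb and Cygb, which had at most 5 counts in any library and were not called. Of its 14 genes tested in TR1, 2 were lower and 5 higher (median 1.19), and of 13 tested in TR9, 3 were lower and 3 higher (median 0.46). Myeloperoxidase (Mpo) had 31884 counts in Control, 109146 in TR1 (3.36-fold higher) and 46495 in TR9 (1.56-fold, not called). Ptgs2 rose from 4 counts to 43 and 36, and Nos2 had 1, 30 and 4. The eosinophil peroxidase Epx fell from 1817 counts to 6 and 10, and catalase (Cat) had 1000, 243 and 451, which is 4.19-fold and 2.07-fold lower. Genes that make heme a and mature or reduce cytochromes were lower in 5 of 14 in TR1 and 1 of 14 in TR9, with 0 higher (medians -0.72 and -0.36), and the count in TR9 is a smaller share than the 10.8% of all genes called lower there. Of these, Cox11, a cytochrome oxidase assembly factor, was 2.72-fold and 2.50-fold lower and Cyb5r3, a cytochrome b5 reductase, was lower in TR1 (log2 -1.52) and at log2 -0.94 in TR9. Por, the reductase of microsomal cytochromes P450 (log2 -0.24 and 0.56), and Uqcrh, a subunit of respiratory complex III (log2 -0.40 and 0.13), were not called.

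**Figure D4:**
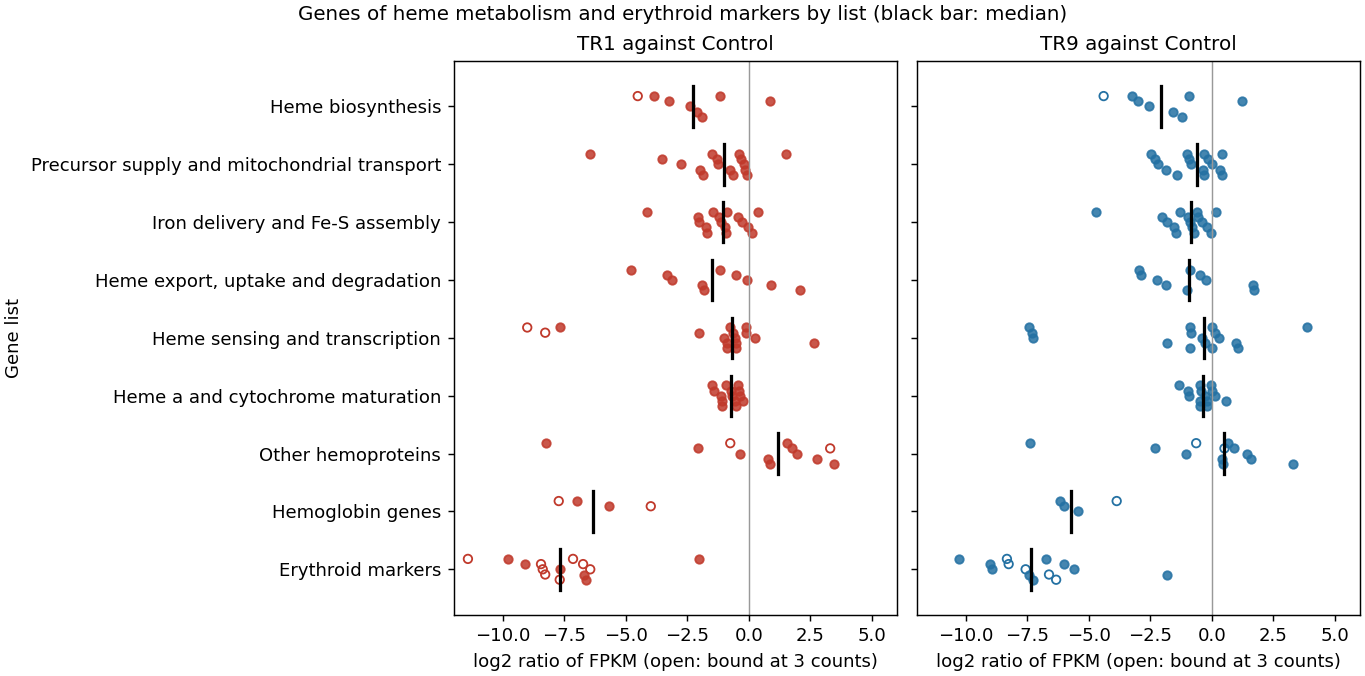
Log2 ratio of FPKM to Control of each gene of the 8 heme-related lists and of 14 erythroid markers in TR1 (left) and TR9 (right), 1 point per gene with a black bar at the median of the list, and open circles for genes set to the floor of 3 counts. The bar of the biosynthesis enzymes lies at -2.25 in TR1 and -2.07 in TR9, between those of the erythroid markers (-7.68 and -7.34) and those of the other lists apart from the hemoglobin genes.

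Genes with a pattern most like that of 3 enzymes were found by the distance between their pairs of log2 ratios (TR1 and TR9 against Control), among 8181 genes with at least 50 expected counts in every library. Nearest to Alas1 were Snapin (261, 483 and 567 counts in Control, TR1 and TR9, distance 0.0268), Mad2l2 and 1700025G04Rik. Nearest to Ppox, the enzyme with the smallest mean change, were Tsn, Sema4b and Fnbp4, at distances of 0.0122 to 0.0179. Cpox had fewer close neighbours, with the mast cell protease Cpa3 (915, 99 and 114 counts) at 0.0929, Txndc5 at 0.329 and Smap2 at 0.459. A likeness over 2 ratios that share the Control library is a description of 3 libraries.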

How the data were processed

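RNA-seq was performed on 3 libraries, 1 per condition, grouped by the sample labels. After filtering reads, the authors used BWA, Bowtie and RSEM for mapping and quantification, and the submitters' processing notes name mm9 (versions are not given in the sources used here). The deposited values are an expected count per gene, an RSEM estimate without normalization, and an FPKM, which the authors scaled for transcript length and library total. Of 16742 IDs, 16698 were matched to a symbol. An unlisted gene was taken as 0.

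Rounded expected counts of 2 libraries entered a two-sided exact Poisson test (scipy 1.17.1) conditional on their sum, and p-values were adjusted by Benjamini-Hochberg over all genes listed in either library. FPKM under 0.01 were set to 0.01. Intervals are 95% Clopper-Pearson intervals of the count ratio, and Fisher intervals for a ratio relative to another enzyme. Reads carry no molecular identifiers. A fold against 0 counts is a bound at 3 counts, which is 0.538 to 0.585 ppm of the library. The members and gene lists were chosen with earlier results of these data known. Genes named were every member, of each list the 2 lowest and 2 highest by mean log2 ratio with at least 10 counts in a library, and the 3 nearest genes of 3 members. Genes called lower in the list of heme sensing and transcription were also named, after their values were seen. Of the marker lists, only Gata1, Epor and Slc4a1 (chosen, like Mb, Ngb and Cygb, after their values were seen) and genes named for another reason are given by name, and some marker values are not reported here. Promoter windows are from RefSeq (GRCm38.p6), which is not the build of the files, and were matched by symbol.

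Alternatives were TMM (edgeR 4.0.16, R 4.3.3), median of ratios or TPM scaling, an FPKM floor of 0.001, a pseudocount of 1 FPKM, ratios of counts, minimums of 10 counts or 1 FPKM, edgeR's exact test with an assumed coefficient of variation of 0.2 or 0.4, a false discovery rate of 0.05 and a log2 ratio of 2 or more in size. The steps were tested on counts simulated from a Poisson model without variation between mice. That run says nothing about such variation. Software was Python 3.11.15 with pandas 2.3.3, numpy 2.4.6 and, for plots, matplotlib 3.10.9.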

Additional observations from a re-analysis of the deposited data

Results flagged for a closer look

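The TR1 and TR9 libraries differed by a call in 13 of 91 genes tested in the heme-related lists, with 5 lower and 8 higher in TR9, where 2.31% of all genes tested were lower and 4.34% higher, and none was a biosynthesis enzyme. Each value is the log2 ratio of FPKM of TR9 to TR1, from 1 library each. Higher in TR9 were Abcg2 at 4.29 (4 counts in TR1 and 73 in TR9), the mitochondrial protein Fam210b at 2.43 (34 and 169), the hemoglobin scavenger receptor Cd163 at 2.11, Blvrb at 1.92, the coactivator Ppargc1b at 1.92, the iron-sulfur assembly protein Isca1 at 1.15, Nfe2 at 1.09 and Cat at 1.01. Lower in TR9 were Nos2 at -2.82 (30 and 4 counts), Cyp4f18 at -1.95, the NADPH oxidase subunit Cybb at -1.87, Tspo at -1.21 and Mpo at -1.11.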

How the results depend on the processing

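Of 138 member log2 ratios recomputed under 6 alternatives, 0 changed sign. TMM and the median of ratios each gave 1 enzyme higher in TR1, Alas1 (log2 1.11 and 1.09), where the totals gave 0, and left Ppox uncalled there (log2 -0.91 and -0.92), while Ppox was called in TR9 with TPM (log2 -1.04). The assumed coefficient of variation of 0.4 left 1 enzyme lower in TR1 and 1 in TR9, Alas2 in each, and 0 higher in TR9. At 0.2, 6 enzymes were lower in TR1 and 4 in TR9 (Alas2, Alad, Uros and Cpox), with 0 higher in TR9. An absolute log2 ratio of at least 2 left 5 lower in TR1, 4 lower in TR9 and 0 higher in TR9. The variation between mice cannot be measured here.

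Over all genes, 2120 were called lower and 1318 higher in TR1, 1766 and 1527 in TR9, and 363 and 681 in TR9 against TR1. These counts were 992 and 657, 830 and 717, and 94 and 188 with 0.2, 347 and 170, 287 and 161, and 2 and 13 with 0.4, and 1133 and 685, 928 and 738, and 135 and 283 with a log2 ratio of at least 2. The share of lower calls in TR1 was 61.7% by totals, 48.4% with TMM, 49.2% with the median of ratios and 73.3% with TPM. No paired analysis was possible because each condition has 1 library, which also leaves no replicate to omit.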
